A study of Mus musculus with 24 samples.

Results

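The 10 regional marker genes of the ventral and dorsal striatum examined here were *Dlk1*, *Reln*, *Gpr101*, *Gpr155*, *Lypd1*, *Wfs1*, *Nnat*, *Crym*, *Calb1* and *Gda*. They were chosen by symbol from the 24079 genes of the deposited table of read counts, and each passed the filter of 15 reads summed over the libraries in every comparison. *Dlk1* was selected on these data as the strongest difference between the regions in whole lysates. The others were taken as markers of the same regional contrast. The difference between regions in whole lysates is therefore given as a description, with no test, for all 10 genes. The libraries came from the nucleus accumbens (Acb, the ventral striatum, labelled Nac) and from the dorsal striatum (DS, labelled DStr) of wild-type mice and of rpS6P-/- mice, a constitutive knockin in which ribosomal protein S6 cannot be phosphorylated. Both genotypes were littermates of both sexes on a mixed background of C57Bl/6, Sv129 and ICR, untreated as far as the labels say, and their ages were not given in the sources used here. Each library is a biological replicate made from several mice. From the lysates, polyadenylated RNA was sequenced from the heavy polysomal fraction and from the whole lysate (cytosolic mRNA before the sucrose gradient). The heavy polysomal fraction holds mRNAs carrying more than 4 ribosomes by the labels, where the study's methods include those with exactly 4. Each of the 8 combinations of region, genotype and kind of RNA was represented by 3 libraries, 24 in all. The Acb was cut from a more anterior coronal slice than the DS, so that ventral against dorsal and anterior against posterior cannot be told apart.

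The striatum is built mostly of medium spiny neurons, GABAergic output neurons that look alike along its dorsoventral axis but differ in the genes they express. The Acb serves reward and motivation and the DS the selection and learning of actions, and genes expressed unequally along this axis are used to map the border between them. The markers described here act at different places in the cell. *Dlk1* encodes a transmembrane protein related to the Notch ligands, and *Reln* encodes reelin, a large secreted glycoprotein that binds the lipoprotein receptors encoded by *Vldlr* and *Lrp8* and acts through the adaptor *Dab1*. *Gpr101* encodes an orphan G protein-coupled receptor, *Gpr155* a lysosomal membrane protein that senses cholesterol, and *Lypd1* a GPI-anchored protein of the Ly6 family that binds nicotinic acetylcholine receptors. *Wfs1* (wolframin) and *Nnat* (neuronatin, an imprinted gene) encode membrane proteins of the endoplasmic reticulum. *Crym* encodes a cytosolic protein that binds thyroid hormone, *Calb1* the calcium buffer calbindin, and *Gda* guanine deaminase, which converts guanine to xanthine.

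The sequence upstream of the start was available from RefSeq (GRCm38.p6) for 8 of the 10 genes, all but *Crym* and *Calb1*. Windows of 250 bases are printed for *Gpr101*, *Wfs1* and *Nnat*, which were higher in the Acb, and for *Reln*, which was higher in the DS, because each of the 4 had separate regional ranges in at least 1 kind of RNA and a window wholly outside the annotated span of the gene. Capitals mark every match, on either strand, to the TATA box TATAAA, the cAMP response element TGACGTCA, its core TGACG (which every full element also holds), the GC box GGGCGG and the E-box CACGTG.
Gpr101, chrX:57503758-57504007, minus strand: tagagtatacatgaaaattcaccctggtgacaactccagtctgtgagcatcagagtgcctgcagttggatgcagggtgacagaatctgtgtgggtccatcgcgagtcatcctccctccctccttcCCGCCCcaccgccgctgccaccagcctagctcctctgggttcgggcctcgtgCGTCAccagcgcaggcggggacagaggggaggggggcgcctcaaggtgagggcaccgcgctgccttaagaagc
Wfs1, chr5:36988983-36989232, minus strand: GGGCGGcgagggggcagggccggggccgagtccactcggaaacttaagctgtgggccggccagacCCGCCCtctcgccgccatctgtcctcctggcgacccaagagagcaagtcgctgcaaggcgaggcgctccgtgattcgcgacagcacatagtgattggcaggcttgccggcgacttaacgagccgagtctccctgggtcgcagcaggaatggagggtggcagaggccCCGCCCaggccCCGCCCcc
Nnat, chr2:157559828-157560077, plus strand: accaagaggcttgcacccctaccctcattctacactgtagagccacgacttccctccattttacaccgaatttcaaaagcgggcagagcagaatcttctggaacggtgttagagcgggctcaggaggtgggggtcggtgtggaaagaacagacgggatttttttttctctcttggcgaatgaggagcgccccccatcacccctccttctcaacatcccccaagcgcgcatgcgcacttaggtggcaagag
Reln, chr5:22344706-22344955, minus strand: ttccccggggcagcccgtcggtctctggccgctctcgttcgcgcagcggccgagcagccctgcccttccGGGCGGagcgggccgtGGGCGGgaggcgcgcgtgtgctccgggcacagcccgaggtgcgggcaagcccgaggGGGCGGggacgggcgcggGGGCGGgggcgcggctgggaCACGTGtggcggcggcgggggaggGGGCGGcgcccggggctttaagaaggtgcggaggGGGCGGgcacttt

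The GC box matched 6 times in the window of *Reln*, 4 times in that of *Wfs1*, once in that of *Gpr101* and not in that of *Nnat*, and it was present in 32.7% of the 32851 RefSeq windows of this length. The window of *Reln* also held the E-box, found in 6.02% of all windows, and that of *Gpr101* the TGACG core, found in 17.8%. No window of these 4 genes held the TATA box (12.4% of all windows) or the full cAMP response element (1.55%). CpG dinucleotides numbered 37 in the window of *Reln*, 23 in that of *Wfs1*, 13 in that of *Gpr101* and 12 in that of *Nnat*, against a median of 6 over all windows. Of the other genes with a window, *Gpr155*, which was higher in the DS, had 7 GC boxes, and *Dlk1* and *Gda* had none. *Lypd1*, which was higher in the Acb, had 1 GC box in each of its windows, and 1 of these windows also held the E-box and the TGACG core. The TGACG core was present in the windows of *Dlk1* and *Gpr155* too. CpG dinucleotides numbered 17 for *Gpr155*, 8 to 14 for *Lypd1*, 8 for *Dlk1* and 5 for *Gda*. These matches describe letters and were not tested as binding sites.

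Between 9280589 and 34703044 reads per library were assigned to genes. Levels are given in CPM, the reads of a gene scaled to library sizes corrected with TMM factors (trimmed mean of M values) over the 24 libraries. Before that correction, *Bc1*, a short non-coding RNA of neurons, held 15.2 to 26.1% of all reads in whole lysates against 0.897 to 3.85% in heavy polysomal fractions. Read counts cannot show the exchanged serines of *Rps6*, and genotypes are therefore those of the labels. The markers of medium spiny neurons (9 of 10 listed genes found) summed to 4027 to 4471 CPM in the Acb and 4481 to 5081 CPM in the DS whole lysates. Markers of neighbouring tissue differed between the regions. The 7 markers of cortical excitatory neurons summed to 106 to 243 CPM in the Acb libraries and 744 to 1001 CPM in the DS libraries, with none at 0 throughout a group. The 6 markers of septum, basal forebrain and pallidum summed to 92.9 to 137 CPM in the Acb and 34.0 to 60.1 CPM in the DS, and the 7 hypothalamic markers to 5.26 to 54.6 and 0.0671 to 6.77 CPM, with *Hcrt* at 0 in every Acb group. Markers of choroid plexus (36.0 to 75.4 CPM against 11.6 to 20.0 CPM), astrocytes (490 to 844 CPM against 271 to 498 CPM) and microglia (123 to 197 CPM against 78.6 to 157 CPM) also lay mostly higher in the Acb libraries, the last 2 with overlap. Of the 6 choroid plexus markers, *Folr1* was at 0 in both Acb whole-lysate groups. *Kcnj13* was at 0 in both rpS6P-/- Acb groups and in wild-type heavy polysomal fractions of the DS, where *Otx2* was too. *Otx2* was also at 0 in rpS6P-/- whole lysates of the DS. In heavy polysomal fractions 3 of the 6 were called higher in the Acb and 0 lower (edgeR, adjusted p under 0.05). What part these other cells had in the region differences of the 10 genes was not tested.

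The question of this first comparison was how far each marker separates the Acb from the DS. In whole lysates, 6 genes (*Dlk1*, *Gpr101*, *Wfs1*, *Nnat*, *Crym* and *Lypd1*) were higher in all 6 Acb libraries than in all 6 DS libraries, with ratios of the mean levels from 40.2 for *Dlk1* to 2.14 for *Lypd1*. Only *Gpr155* was higher in all 6 DS libraries than in all 6 Acb libraries. For *Calb1*, *Gda* and *Reln* the ranges of the regions overlapped. Over all 16364 genes with enough reads in whole lysates, 4.80% lay above in the Acb without overlap and 5.24% above in the DS. Because the list was chosen with this contrast in view, nothing is read from that comparison. In these bulk samples, fewer cells of a type and less RNA per cell cannot be told apart.

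**Figure D1:**
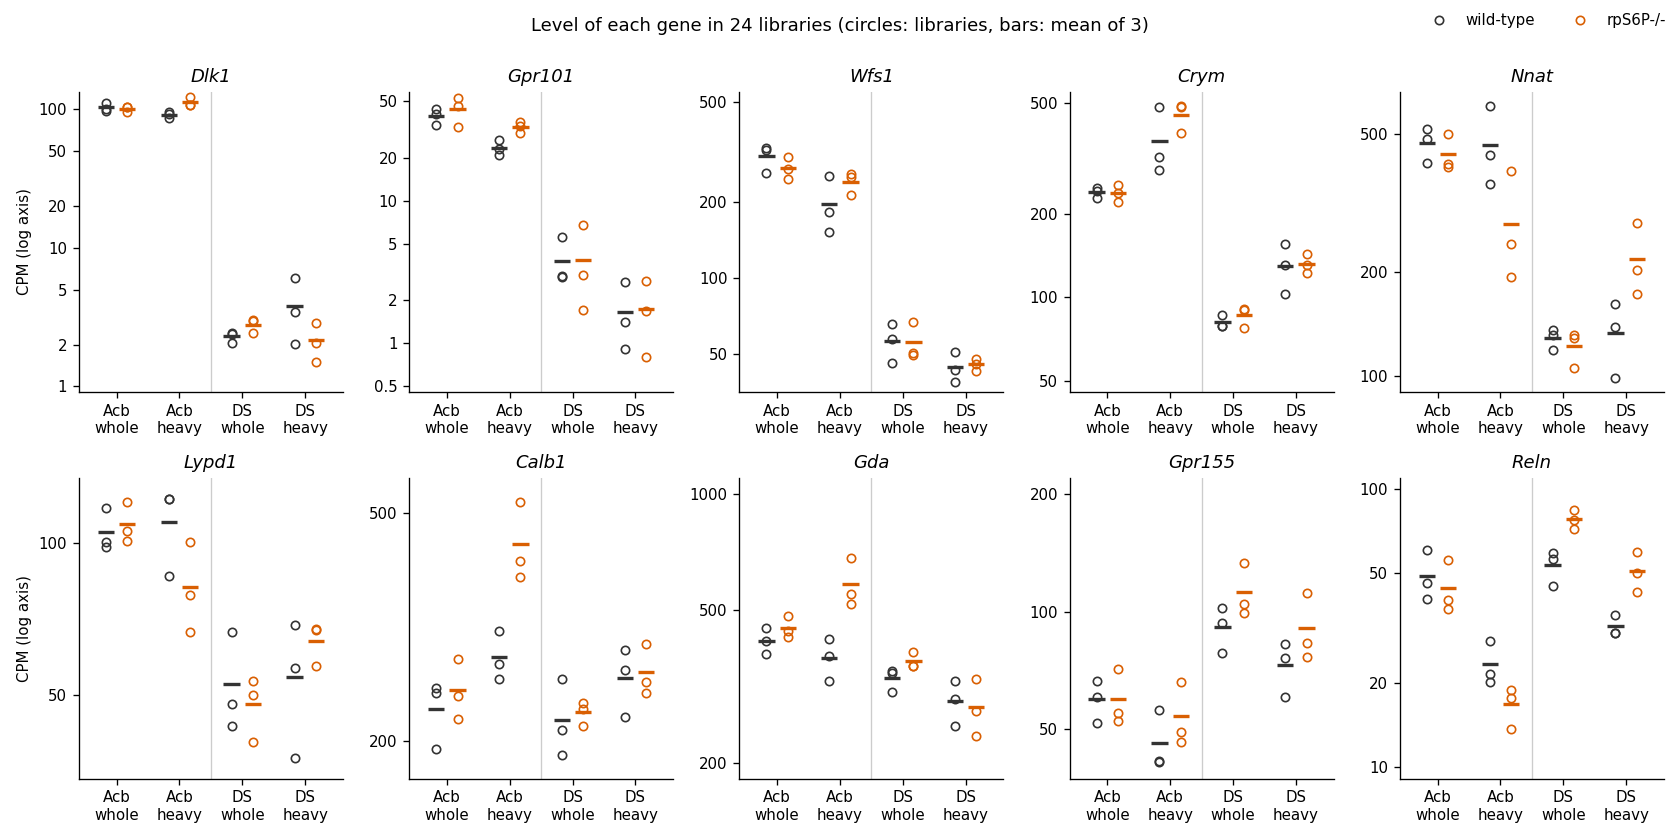
Level of each of the 10 genes in CPM (log axis) in the whole lysates and heavy polysomal fractions of the Acb and the DS, with black circles for wild-type and orange circles for rpS6P-/- libraries and a bar at the mean of 3 libraries. *Dlk1*, *Gpr101*, *Wfs1* and *Crym* have separate Acb and DS levels in both kinds of RNA. *Calb1* lies at like levels in both regions in whole lysates.

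In heavy polysomal fractions, the 9 genes other than *Dlk1* were tested between regions with the quasi-likelihood F test of edgeR over 12 libraries, with genotype as a covariate and Benjamini-Hochberg adjustment over 16880 genes. All 9 had an adjusted p under 0.05, 7 of them higher in the Acb, where 9.44% of all genes were called in that direction, and 2 higher in the DS, where 10.3% were. These libraries come from the same lysates as the whole-lysate libraries, and the genes were chosen with results of these data known, so that the result is not independent of that choice. With wild-type libraries alone, 5 of the 9 (*Gpr101*, *Wfs1*, *Crym*, *Nnat* and *Lypd1*) kept an adjusted p under 0.05 by edgeR. With rpS6P-/- libraries alone, 7 did, all but *Nnat* and *Lypd1*. Each of these fits used fewer libraries, and the share of all genes called in each is not set beside these counts. The counts of 5 and 7 are therefore not read as a difference between the genotypes.

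*Dlk1* showed the widest separation of the 10 genes, which its selection on whole lysates had fixed in advance. Its level in whole lysates ran from 95.2 CPM (median 103) to 111 CPM in the Acb and from 2.05 CPM (median 2.43) to 3.01 CPM in the DS. The mean levels, 103 ± 5.71 CPM and 2.55 ± 0.369 CPM (SD, n = 6 each), stood in a ratio of 40.2. The heavy polysomal fractions held 102 ± 13.2 CPM in the Acb and 2.99 ± 1.64 CPM in the DS, a ratio of 34.2. The DS values rest on 104 to 163 reads in each group of 3 libraries, and the highest DS library, a wild-type heavy polysomal fraction at 6.03 CPM, lay far below the lowest Acb library at 86.5 CPM. Leaving out each whole-lysate library in turn moved the log2 ratio of *Dlk1* between 5.28 and 5.38. These are the values on which the gene was selected, so the range describes them only.

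*Reln*, the other gene for an extracellular ligand, ran the opposite way. In whole lysates it ranged from 37.0 CPM (median 43.1) to 60.6 CPM in the Acb and from 45.0 CPM (median 65.6) to 84.2 CPM in the DS, and the regions overlapped. In heavy polysomal fractions it ranged from 13.7 CPM (median 19.7) to 28.4 CPM in the Acb and from 30.5 CPM (median 39.0) to 59.6 CPM in the DS, with no overlap. The log2 difference of Acb minus DS in heavy polysomal fractions was -1.01 (SE 0.19, adjusted p 6.18e-04, edgeR). The regional difference of *Reln* had a larger value in the rpS6P-/- libraries (-1.60) than in the wild-type libraries alone (-0.39), and the genotype by region term did not pass the test (adjusted p 0.0790, edgeR). For whole lysates these values were -0.83 and -0.13. The wild-type libraries alone gave an adjusted p of 0.285 by edgeR in heavy polysomal fractions.

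Of *Gpr101*, *Gpr155* and *Lypd1*, *Gpr101* had the largest ratio between regions in whole lysates (10.9). Its level in whole lysates ran from 33.1 CPM (median 42.4) to 53.0 CPM in the Acb and from 1.72 CPM (median 2.98) to 6.78 CPM in the DS. The heavy polysomal ranges were 21.0 to 35.4 CPM in the Acb and 0.799 to 2.73 CPM in the DS (log2 difference 4.09, SE 0.26, adjusted p 1.67e-10, edgeR), with 76 to 113 reads behind each DS group of 3 libraries. *Gpr155* was lower in the Acb (51.9 to 71.5 CPM) than in the DS (78.3 to 133 CPM) in whole lysates, a ratio of 1.71 in favour of the DS. The heavy polysomal log2 difference of *Gpr155* was -0.70 (SE 0.14, adjusted p 9.71e-04, edgeR), and there the regions overlapped, with 41.1 to 66.1 CPM in the Acb and 60.6 to 112 CPM in the DS. *Lypd1* ranged from 98.4 to 121 CPM in Acb and from 40.3 to 66.7 CPM in DS whole lysates. Its difference was smaller in heavy polysomal fractions (log2 difference 0.70, SE 0.17, adjusted p 0.00478, edgeR), where 66.8 to 123 CPM in the Acb overlapped 37.5 to 68.8 CPM in the DS.

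Both genes for proteins of the endoplasmic reticulum were higher in the Acb. *Wfs1* lay between 248 and 329 CPM in Acb whole lysates and between 45.9 and 67.2 CPM in DS whole lysates, a ratio of 5.16. They were also apart in heavy polysomal fractions, at 152 to 259 CPM and 38.8 to 50.9 CPM (log2 difference 2.29, SE 0.14, adjusted p 5.72e-11, edgeR). *Nnat* had 401 to 516 CPM in Acb and 106 to 136 CPM in DS whole lysates, a ratio of 3.62. The heavy polysomal libraries of *Nnat* spread widely, from 193 to 602 CPM in the Acb and from 99.1 to 277 CPM in the DS, and overlapped (log2 difference 1.08, SE 0.24, adjusted p 0.00283, edgeR). That log2 difference was 1.86 in wild-type and 0.34 in rpS6P-/- libraries taken alone, whereas in whole lysates it was 1.86 and 1.83. *Nnat* lies at chr2:157560078-157562525 (GRCm38.p6, plus strand) within *Blcap*, which is transcribed from the opposite strand, and reads were counted by strand. *Blcap* itself was higher in heavy polysomal fractions of the Acb by a log2 difference of 0.80 (adjusted p 0.00108, edgeR).

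Of the cytosolic proteins, *Crym* was the only 1 with separate ranges in whole lysates, 221 to 253 CPM in the Acb and 77.1 to 90.5 CPM in the DS. On heavy polysomes it reached 287 to 487 CPM in the Acb and 102 to 155 CPM in the DS (log2 difference 1.65, SE 0.14, adjusted p 1.83e-08, edgeR). *Calb1* overlapped over most of its range in whole lysates, with 194 to 278 CPM in the Acb and 189 to 256 CPM in the DS. On heavy polysomes it ranged from 257 to 524 CPM in the Acb and from 220 to 295 CPM in the DS (log2 difference 0.44, SE 0.13, adjusted p 0.0204, edgeR). Without the second rpS6P-/- library of the DS, the difference of *Calb1* was 0.39 and its adjusted p by edgeR was 0.0565, and with a trend on transcript length removed from each library its difference was 0.33 and did not pass either. *Gda* had 384 to 481 CPM in Acb and 306 to 388 CPM in DS whole lysates, and its heavy polysomal log2 difference was 0.73 (SE 0.14, adjusted p 6.45e-04, edgeR). For both *Calb1* and *Gda* the rpS6P-/- libraries alone showed larger heavy polysomal differences (0.73 and 1.05) than the wild-type libraries alone (0.17 and 0.43).

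**Figure D2:**
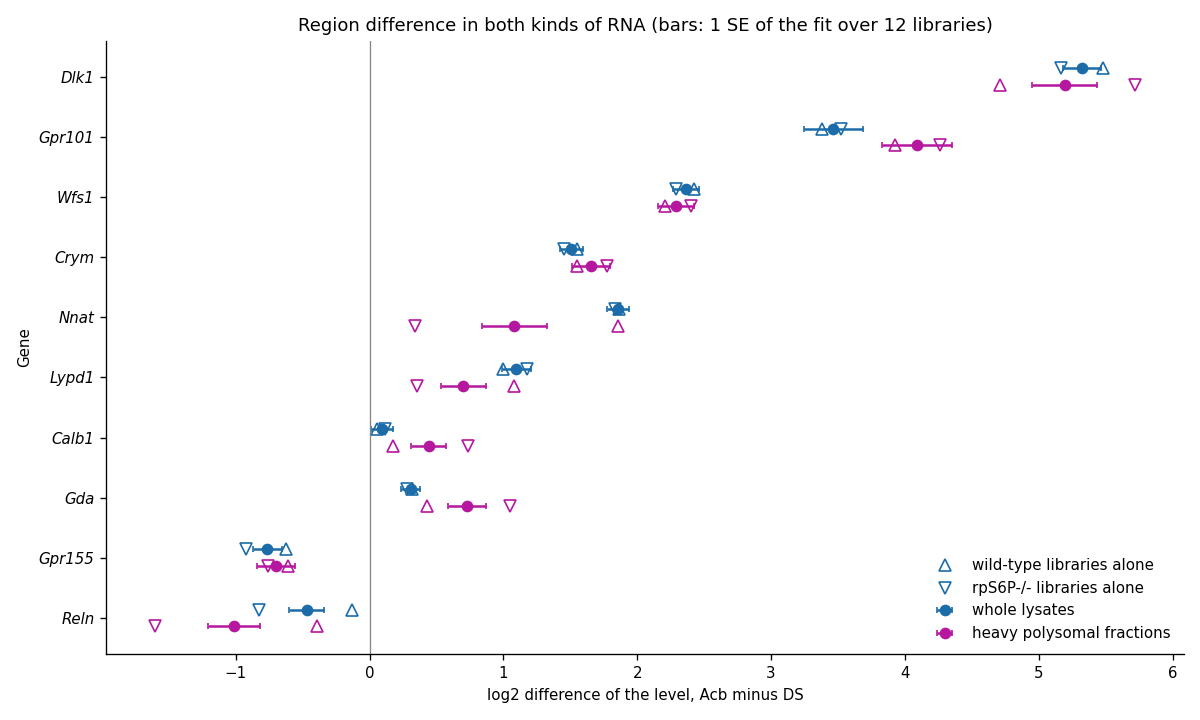
Log2 difference of the level between regions (Acb minus DS, horizontal axis) for each gene, with whole lysates in blue and heavy polysomal fractions in magenta. Filled circles with bars of 1 SE are the fits over 12 libraries and open triangles the genotypes taken alone, which lie far apart in heavy polysomal fractions for *Nnat* (1.86 and 0.34) and *Reln* (-0.39 and -1.60).

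Scaled per kilobase of the longest transcript, which allows levels of different genes to be compared, *Nnat* was the most abundant of the 10 in whole lysates of both regions (374 CPM per kb in the Acb and 103 CPM per kb in the DS). *Crym*, *Gda*, *Wfs1* and *Calb1* followed in the Acb with 172, 79.6, 76.4 and 56.0 CPM per kb. In the DS the order below *Nnat* was *Gda* (64.3), *Crym* (60.4) and *Calb1* (52.3 CPM per kb), and *Wfs1* came after *Gpr155* (20.1) with 14.8 CPM per kb. At the low end, *Reln* was the scarcest in the Acb (3.98 CPM per kb), and *Gpr101* (0.707) and *Dlk1* (0.547 CPM per kb) were the scarcest in the DS.

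The next comparison asked whether each mRNA was over- or under-represented on heavy polysomes relative to the whole lysate, over all 24 libraries with region and genotype as covariates. *Crym* and *Calb1* were higher in heavy polysomal fractions, and *Reln*, *Gpr101*, *Wfs1* and *Gpr155* were lower, while *Dlk1*, *Nnat*, *Lypd1* and *Gda* did not pass the test. These are 2 and 4 of the 10 genes, against 22.7% of all 17365 genes tested called higher and 18.6% called lower (edgeR, adjusted p under 0.05). The log2 difference of *Crym* was 0.71 (SE 0.08, adjusted p 1.58e-09) and that of *Calb1* was 0.41 (SE 0.08, adjusted p 1.00e-04, both edgeR). *Reln* had the lowest value, -0.94 (SE 0.11, adjusted p 7.57e-10, edgeR), followed by *Gpr101* with -0.82 (SE 0.18, adjusted p 2.33e-04, edgeR). *Wfs1* fell by 0.36 on the log2 scale (SE 0.09, adjusted p 6.81e-04, edgeR) and *Gpr155* by 0.28 (SE 0.09, adjusted p 0.0105, edgeR). The remaining genes lay between -0.09 (*Gda*) and 0.06 (*Nnat*).

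Within the 4 combinations of region and genotype, the heavy polysomal shift of *Reln* was negative in each, from -1.41 in rpS6P-/- Acb to -0.66 in rpS6P-/- DS. For *Gpr101* it ran from -1.23 in wild-type DS to -0.44 in rpS6P-/- Acb, and for *Wfs1* from -0.64 in wild-type Acb to -0.20 in rpS6P-/- Acb. *Crym* was positive in each, from 0.58 in rpS6P-/- DS to 0.92 in rpS6P-/- Acb. *Nnat* was close to 0 in both wild-type groups (-0.02 in the Acb and 0.02 in the DS) and moved apart in rpS6P-/- mice, to -0.68 in the Acb and 0.80 in the DS. *Lypd1* had the same pattern with smaller values, 0.06 and 0.01 in wild-type and -0.42 and 0.38 in rpS6P-/- mice. These values within groups are given without a test. *Reln* has the longest transcript of the 10 genes (11699 bases) and *Nnat* the shortest (1213 bases). With a trend on transcript length removed from each library, the difference of *Reln* over all libraries was -0.34 and that of *Crym* 0.27, both still with an adjusted p under 0.05 (edgeR), and *Gpr155* no longer passed (-0.11). In libraries of the DS alone *Gpr101* (-1.18) and *Calb1* (0.22) did not pass, and in those of the Acb alone *Gpr155* (-0.26) did not. Some genes passed only under an alternative. *Nnat* passed with opposite signs, -0.44 with the length trend removed (adjusted p 5.22e-04) and 0.43 in the DS alone (adjusted p 0.00644, both edgeR). *Lypd1* passed with the length trend removed (0.35, adjusted p 0.0152) and *Gda* in the DS alone (-0.31, adjusted p 0.00788, both edgeR).

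**Figure D3:**
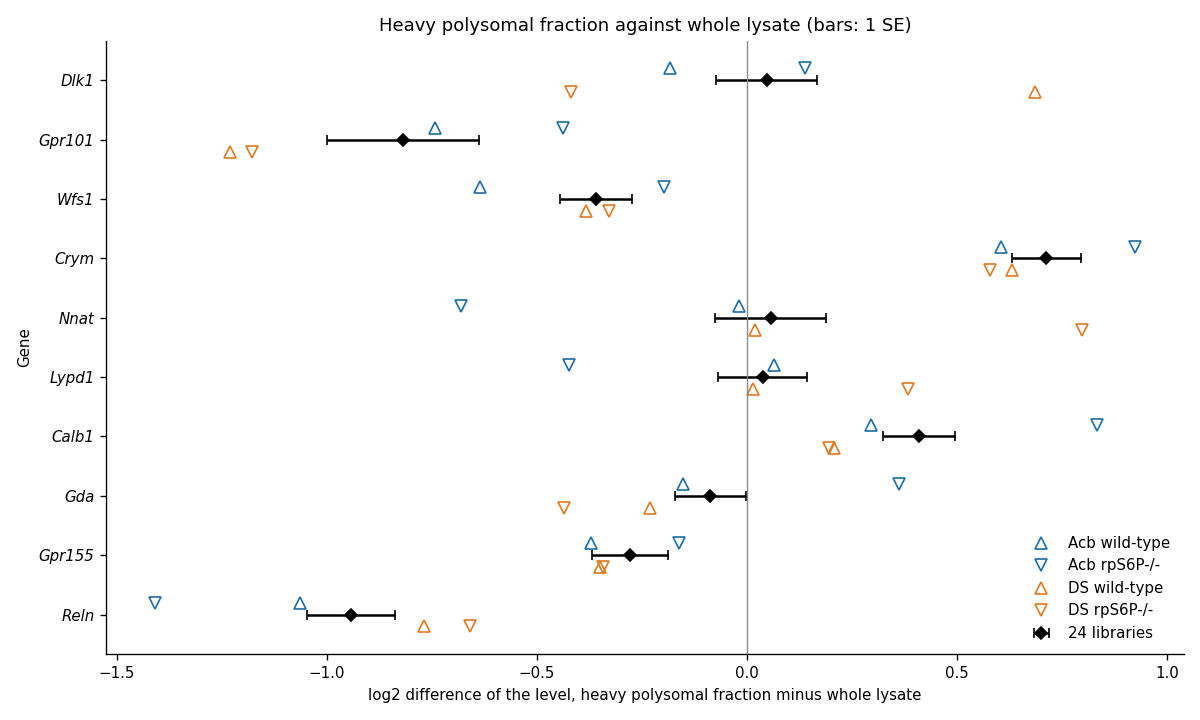
Log2 difference of the level between the heavy polysomal fraction and the whole lysate (horizontal axis) for each gene, with black diamonds and bars of 1 SE for all 24 libraries, blue triangles for the Acb and orange triangles for the DS, pointing up for wild-type and down for rpS6P-/- libraries. *Crym* lies right of 0 and *Reln* left of 0 in all 4 groups, and *Nnat* lies at opposite sides in the rpS6P-/- Acb (-0.68) and DS (0.80).

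Genotypes were compared within each region and kind of RNA, 3 libraries against 3, to ask whether the loss of rpS6 phosphorylation altered the markers. None of the 10 genes had an adjusted p under 0.05 in any of these 4 comparisons by edgeR's quasi-likelihood F test. The heavy polysomal fractions of the Acb came closest. There, 7 genes had a positive and 3 (*Nnat*, *Lypd1* and *Reln*) a negative log2 difference of rpS6P-/- minus wild-type, and 6 of 10 had an unadjusted p under 0.05, against 21.7% of all 16227 genes, of which 0% passed the adjusted cutoff. The smallest p belonged to *Calb1*, with 273, 311 and 257 CPM in wild-type and 413, 386 and 524 CPM in rpS6P-/- libraries. All rpS6P-/- libraries thus lay above all wild-type libraries for *Calb1* (log2 difference 0.66, SE 0.16, adjusted p 0.0987, edgeR). The 5 other genes under an unadjusted p of 0.05, named after their values had been seen, were *Gda* (0.64), *Gpr101* (0.48), *Lypd1* (-0.42), *Reln* (-0.48) and *Nnat* (-0.75, on the log2 scale). *Gda* had 325, 419 and 380 CPM in wild-type and 517, 548 and 682 CPM in rpS6P-/- libraries. *Nnat* overlapped, with 602, 359 and 435 CPM in wild-type and 391, 241 and 193 CPM in rpS6P-/- libraries. DESeq2 called 3 of the 10 genes, *Calb1*, *Gda* and *Nnat*, and 1090 genes in all. The summed hypothalamic markers of these libraries were 20.1 to 54.6 CPM in wild-type and 10.7 to 19.8 CPM in rpS6P-/- mice, with 0 of 6 tested called. Sums of the other marker lists overlapped between the genotypes. Single markers of other lists differed in both directions, such as *Ttr* (-3.73), *Mobp* (-0.95) and *Cnp* (0.56, on the log2 scale), and 0 passed the adjusted cutoff. The part of these cells in the differences was not tested.

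Whole lysates of the Acb showed smaller differences, from -0.15 to 0.16 on the log2 scale over the 10 genes. In them 0 of 10 genes had an adjusted p under 0.05 (0.00650% of all genes), 0 an unadjusted p under 0.05 (2.96% of all genes), and DESeq2 called 0. *Wfs1* had the smallest p, with 261, 329 and 322 CPM in wild-type and 303, 248 and 272 CPM in rpS6P-/- libraries (log2 difference -0.15, SE 0.12, adjusted p 0.9996, edgeR).

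In heavy polysomal fractions of the DS, *Nnat* and *Reln* were the genes under an unadjusted p of 0.05, 2 of 10 against 6.42% of all genes, and 0 passed the adjusted cutoff (0.0440% of all genes), also with DESeq2. *Nnat* had 139, 99.1 and 162 CPM in wild-type and 173, 203 and 277 CPM in rpS6P-/- libraries, without overlap (log2 difference 0.75, SE 0.19, adjusted p 0.229, edgeR). *Reln* had 35.3, 30.5 and 30.5 CPM against 59.6, 42.7 and 50.1 CPM, again without overlap. In whole lysates of the DS, 0 of 10 genes passed the adjusted cutoff (0.122% of all genes), and *Reln* and *Gpr155* had an unadjusted p under 0.05, 2 of 10 against 9.07% of all genes. *Reln* had 45.0, 59.3 and 56.1 CPM in wild-type and 71.9, 84.2 and 78.0 CPM in rpS6P-/- whole lysates (log2 difference 0.53, SE 0.14, adjusted p 0.122, edgeR), and DESeq2 called it. The summed markers of cortical excitatory neurons were 744 to 974 CPM in these wild-type and 765 to 866 CPM in these rpS6P-/- lysates. They were 941 to 1001 CPM and 783 to 984 CPM in the heavy polysomal fractions of the DS.

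**Figure D4:**
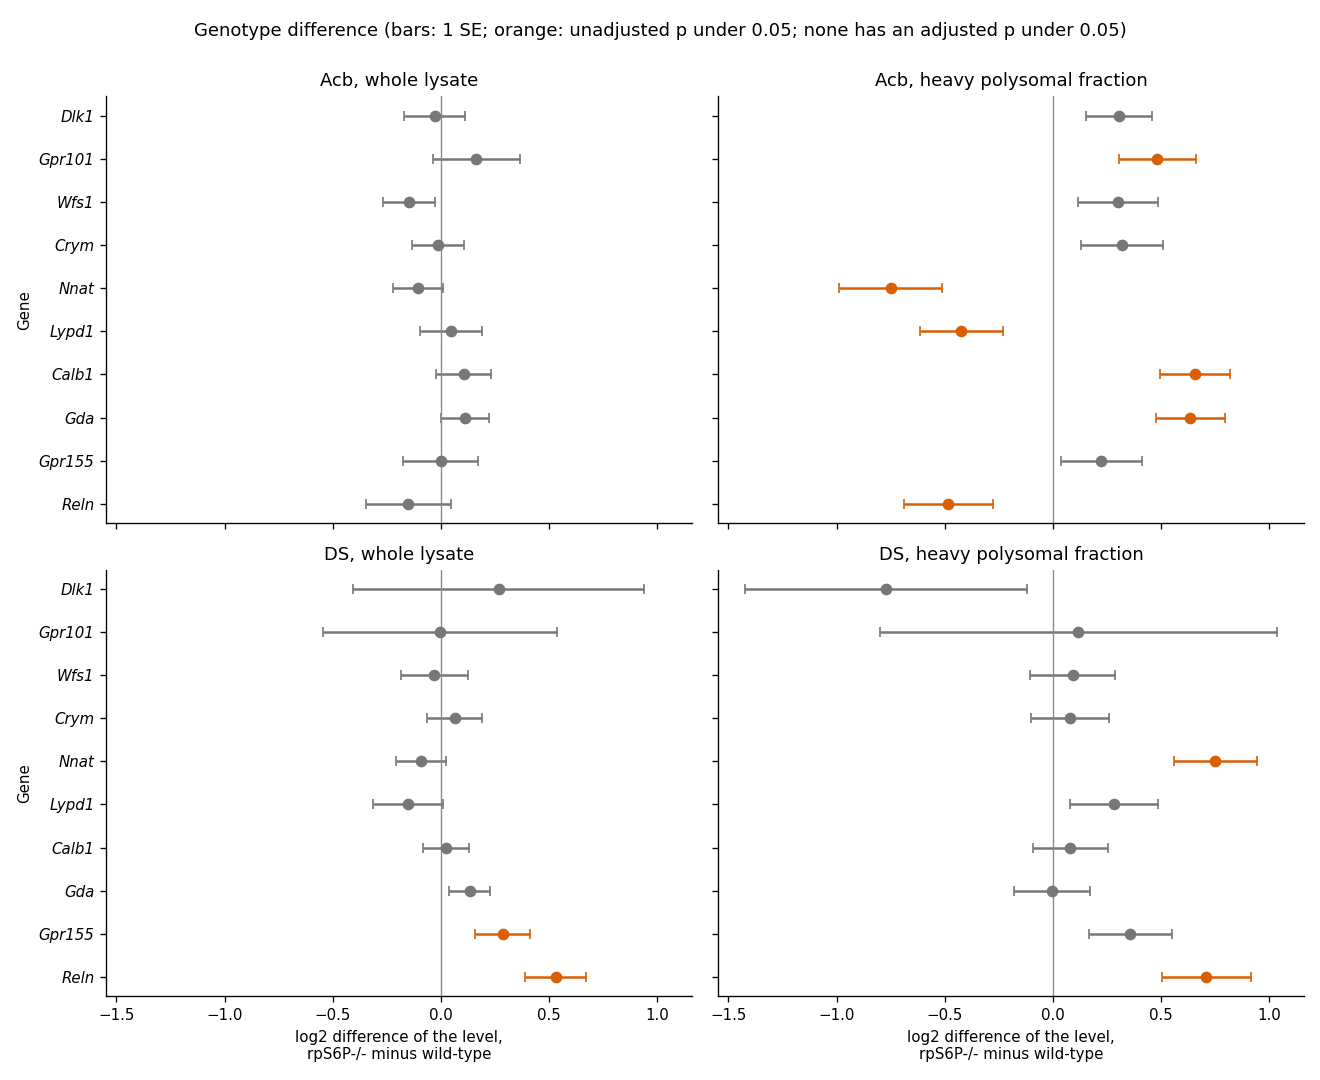
Log2 difference of the level between rpS6P-/- and wild-type mice (horizontal axis) for each gene in 4 panels of region and kind of RNA, with bars of 1 SE and orange points for an unadjusted p under 0.05. Of the Acb points, 6 are orange for heavy polysomal fractions and 0 for whole lysates, and *Reln* lies left of 0 in the Acb and right of 0 in the DS.

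Whether the genotype difference itself depended on the region was tested as an interaction over the 12 libraries of a kind of RNA. In heavy polysomal fractions 0 of 10 genes had an adjusted p under 0.05 by edgeR (0.00592% of all genes) and DESeq2 called 1, *Reln*. An unadjusted p under 0.05 was found for 6 of 10 genes, against 13.8% of all genes. The smallest belonged to *Nnat*, with a negative value in the Acb and a positive one in the DS and a difference of log2 fold changes (Acb minus DS) of -1.49 (SE 0.34, adjusted p 0.0621, edgeR). Over the alternatives its adjusted p ranged from 2.48e-06 to 0.301. It was 0.0440 without the second wild-type library of the Acb, 0.00419 without the first rpS6P-/- library of the Acb, and 0.0337 without the third wild-type library of the DS (edgeR). The first 2 of these omissions also brought *Reln* to 0.0467 and 0.0308, and the last *Dlk1* to 0.0493 (adjusted p, edgeR). The difference for *Reln* was -1.18, that for *Dlk1* 1.04, and *Lypd1* (-0.69), *Gda* (0.66) and *Calb1* (0.59) made up the others, named after their values had been seen. For *Dlk1* the heavy polysomal libraries of the DS held only 34 to 65 reads each. There the genotypes overlapped, at 2.02 to 6.03 CPM in wild-type and 1.49 to 2.88 CPM in rpS6P-/- libraries. In whole lysates 0 of 10 genes passed the adjusted cutoff (0.00611% of all genes), DESeq2 called 0, and only *Reln* had an unadjusted p under 0.05, 1 of 10 against 5.11% of all genes (-0.69, SE 0.24, adjusted p 0.953, edgeR).

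Whether the knockin altered the heavy polysomal share beyond the whole lysate was tested as an interaction of genotype and kind of RNA. In the Acb 0 of 10 genes passed the adjusted cutoff (0% of all genes) and DESeq2 called 0, while 3 of 10 (*Gda*, *Calb1* and *Nnat*) had an unadjusted p under 0.05, against 11.9% of all genes. *Gda* had the smallest p, with a difference of log2 fold changes (heavy minus whole) of 0.52 (SE 0.21, adjusted p 0.321, edgeR). Without the first rpS6P-/- heavy polysomal library of the Acb, *Nnat* reached an adjusted p of 0.0406 (edgeR, -0.99). In the DS 0 of 10 genes passed (0% of all genes), DESeq2 called 0, and *Nnat* alone had an unadjusted p under 0.05, 1 of 10 against 4.90% of all genes (0.82, SE 0.23, adjusted p 0.713, edgeR).

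Other genes of the markers' pathways, 61 tested of 63 listed with the same test, were compared in the same way. Of these, 10 were higher in the Acb and 9 higher in the DS in heavy polysomal fractions, where 9.44% and 10.3% of all genes were. Of the 14 Notch ligands, receptors and targets beside *Dlk1*, 0 passed and 5 had an unadjusted p under 0.05, as did 5436 of all 16880 genes (edgeR), while for reelin signalling *Vldlr*, a reelin receptor, was higher in the Acb (log2 difference 0.79, adjusted p 1.54e-04, edgeR), as was the adaptor *Crkl*, and *Lrp8* and *Dab1* did not pass. Of 7 genes for thyroid hormone handling, beside *Crym*, 3 were higher in the Acb and 1 in the DS, with *Dio3*, the deiodinase that inactivates the hormone, at 2.94 (adjusted p 4.05e-04, edgeR). Among 5 tested calcium buffers and sensors, *Calb2* was higher in the Acb (2.52, adjusted p 1.58e-09), and *Pvalb*, *Hpca* and *Ncald* were higher in the DS (-1.68, -1.03 and -1.54, all edgeR). The 6 tested Ly6 genes split into 1 higher in the Acb (*Ly6h*, 1.03) and 3 higher in the DS, the 10 genes of endoplasmic reticulum stress into 1 and 1, and the 9 of purine salvage and breakdown into 1 and 1. Between heavy polysomal fractions and whole lysates, 22 of the 61 were higher and 15 lower, where 22.7% and 18.6% of all genes were, among them all 5 calcium buffers and sensors higher, as *Calb1* was. In the genotype comparisons and interactions, the 1 gene of these lists that passed was *Hspa5*, an endoplasmic reticulum chaperone, higher in rpS6P-/- mice in whole lysates of the DS (log2 difference 0.54, adjusted p 0.0451, edgeR).

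Across the 24 libraries, *Dlk1*, *Gpr101* and *Wfs1* followed each other (Pearson r of log2 CPM 0.94 for *Dlk1* with *Gpr101*, 0.97 with *Wfs1*, and 0.95 for *Gpr101* with *Wfs1*). *Nnat* and *Lypd1* formed another pair (0.95), and *Gpr155* ran against *Crym* (-0.84) and *Dlk1* (-0.83). Similar genes were sought among 11979 genes with at least 50 reads on average, a number that includes the 10 genes themselves, which were then set aside. *Peg10* and *Ntn1* were the most like *Dlk1* (0.985 and 0.976), and the same pair of genes was the most like *Gpr101* and *Wfs1*. *Pnck* (0.985) and *Sdc2* (0.955) were nearest to *Crym*, *Gpx3* (0.938) and *Tunar* (0.924) to *Nnat*, and *Blcap* (0.899) and *Gm5607* (0.893) to *Lypd1*. *Calb1* was matched best by *Msantd4* (0.912) and *Vdac3* (0.905), *Gda* by *Ankrd63* (0.928) and *Pak3* (0.922), *Gpr155* by *Me2* (0.901) and *Fnbp1l* (0.900), and *Reln* by *Mmd* (0.911) and *Brwd1* (0.901). These correlations describe 24 libraries that share regions, lysates and depth and carry no test.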

How the data were processed

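The values analysed are raw counts of reads per gene, which the authors deposited without normalization for 24079 genes in 24 libraries. Per the labels and the study's methods, stranded poly(A) libraries were aligned to mm10 with TopHat2 2.0.13 and Bowtie2 2.2.3, alignments with more than 3 mismatches were discarded, and reads were counted on the strand opposite to the gene with HTSeq 0.6.1p1. Counts were used as deposited, after base calling with CASAVA 1.8.2, and 0 columns were left out.

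A gene entered a comparison with a sum of at least 15 reads in its libraries, and groups were compared with edgeR 4.0.16 in R 4.3.3 (TMM, quasi-likelihood F test with legacy settings, Benjamini-Hochberg over all genes, cutoff 0.05). Levels in CPM used TMM factors over all 24 libraries, and correlations log2 CPM with a prior count of 2. DESeq2 1.42.0 was an alternative, and an adjusted p that it gave as NA stayed NA. Other alternatives were DESeq2's size factors, other filters, all libraries in 1 fit, removal of a transcript length trend (loess, span 0.5), blocks by replicate number, single genotypes or regions, *Bc1* removed before scaling, and leaving out each library. For heavy polysomal fractions against whole lysates, the heavy and whole libraries of a number were left out together. Positions and upstream windows came from RefSeq GRCm38.p6, and transcript lengths, strands and gene overlaps from the GENCODE annotation, which gave all 10 genes a length. The steps of some comparisons were run on simulated counts with planted differences. These were larger than the genotype differences reported within a region and kind of RNA. How well differences of that smaller size are recovered was not tested.

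The genes, pathway lists and markers were chosen with earlier results of these data known. All 10 genes are named, with full statistics for those that pass a test or, where none does, for the 1 with the smallest p. The 2 most similar genes were taken by Pearson r. By the methods, input and heavy polysomal RNA were taken from the same lysates, and a heavy polysomal library pooled fractions of more than 1 sample. That libraries of the same number share lysates is not stated. Correlations of the deviations of same-numbered heavy polysomal and whole-lysate libraries ranged from -0.0376 to 0.0743 over 12 pairs, 0 above 0.1. The study names 3 biological replicates per group, and p-values measure the spread between these libraries. Precision from read depth was lowest for *Dlk1* and *Gpr101* in the DS.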

Additional observations from a re-analysis of the deposited data

Results flagged for a closer look

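Among the marker genes examined here, *Reln* in heavy polysomal fractions was the 1 result in which the genotype differences of the regions ran in opposite directions in every library. The share of all genes with this pattern was not counted, so the pattern is not shown to be rare. All 3 rpS6P-/- libraries lay below all 3 wild-type libraries in the Acb (19.0, 13.7 and 17.8 CPM against 28.4, 20.3 and 21.7 CPM), and all 3 lay above them in the DS (59.6, 42.7 and 50.1 CPM against 35.3, 30.5 and 30.5 CPM). The difference of log2 fold changes (Acb minus DS) was -1.18 (SE 0.28, adjusted p 0.0790, edgeR), which did not pass the cutoff, and DESeq2 gave an adjusted p of 0.0166. Over the alternatives the adjusted p ranged from 0.00748 to 0.332 and the difference from -1.33 to -1.02. The higher level in the DS was not confined to heavy polysomal fractions. DS whole lysates held 71.9, 84.2 and 78.0 CPM of *Reln* in rpS6P-/- and 45.0, 59.3 and 56.1 CPM in wild-type libraries. That difference did not pass the cutoff by edgeR either, and in whole lysates of the Acb the genotypes overlapped.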

How the results depend on the processing

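The count of the 10 genes called moved under these alternatives. Of 1800 log2 differences of the 10 genes recomputed under alternatives, 101 changed sign, 0 of them where the reported difference had passed its test. In 1 of these the opposite sign passed, *Nnat* in heavy polysomal fractions against whole lysates with the length trend removed. For genotype in heavy polysomal fractions of the Acb (0 in the report), 3 genes were called with no filter beyond 1 read, 3 by DESeq2 and 3 with all 24 libraries in 1 fit. In the DS (0), 1 gene was called in heavy polysomal fractions with no filter, and in whole lysates 1 with no filter, 1 by DESeq2 and 1 with the replicate block. For genotype by region in heavy polysomal fractions (0), 2 genes were called with no filter, 1 by DESeq2, 2 with all 24 libraries and 2 with the replicate block, *Nnat* and *Reln* (adjusted p 2.48e-06 and 0.0156, edgeR), and 0 to 2 when leaving out each library in turn. For genotype by kind of RNA in the Acb, leaving out each library gave 0 to 1. For region in heavy polysomal fractions (9), wild-type libraries alone gave 5, and over all genes 1316 calls in place of 3336, with 6 of the 12 libraries. Over all genes, calls for genotype in heavy polysomal fractions of the Acb numbered 0, but 549 with no filter, 1090 by DESeq2, 813 with all 24 libraries and 98 with the replicate block. For genotype by region in heavy polysomal fractions they numbered 1, and 353, 236, 433 and 479 under the same alternatives. In the DS they numbered 7 in heavy polysomal fractions (37, 17, 0 and 31) and 19 in whole lysates (66, 95, 0 and 71). For genotype by kind of RNA in the Acb they numbered 0, with 107 under no filter and 106 with the replicate block. The filterByExpr filter gave 0, 1 and 2 calls for genotype by region in heavy polysomal fractions and for genotype in heavy polysomal fractions and whole lysates of the DS, and removal of the length trend 20, 11 and 8. In the remaining genotype comparisons 0 to 6 genes were called. The cause was not tested. The paired fits changed no other count of the 10 genes. Same-numbered libraries correlated in their deviations from -0.256 to 0.217 between regions (1 of 12 pairs above 0.1) and from -0.295 to 0.320 between genotypes (2 of 12), so that these numbers are not shown to pair them. Of the log2 differences given with full statistics, 248 kept direction and call when a library (or a same-numbered pair) was left out, 3 gained and 1 lost the call. Under other alternatives 269 of them kept both, 10 gained the call, 11 lost it, and 6 without a test moved beyond the spread, all *Dlk1* or *Reln* with the genotypes taken alone. Precision is lowest where reads are few, as for *Gpr101* (76 reads in wild-type heavy polysomal fractions of the DS).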
